A study of Mus musculus with 6 samples.

Results

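Of 18518 gene symbols in the deposited table, 47 represent respiratory complexes II to V and cytochrome c, the carrier between complexes III and IV. They were chosen by symbol: the genes Sdha to Sdhd, symbols that begin with Uqcr, with Cox4 to Cox8 followed by a letter, or with Atp5, and Cyc1 and Cycs. Their FPKM (fragments per kilobase of transcript, relative to library size) also had to average 1 or more across the 6 libraries. The symbols matched 48 rows, and Cox6a2, with a mean of 0.971 FPKM, was the 1 row that fell below the level filter. The member with the lowest mean above it was Cox8c. By symbol the 47 genes split into 4 for complex II, 9 for complex III, 1 for cytochrome c, 16 for complex IV and 17 for complex V. These counts include Cox7a2l (complex IV), Atp5s and Atp5sl (both complex V), which match by symbol without being core subunits.

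The libraries came from E14Tg2A, an established line of mouse embryonic stem cells. There were 3 wild-type (WT) and 3 BACH1-KO libraries, and BACH1 is a heme-regulated transcriptional repressor. Cells of both genotypes were held for 2 days in serum medium containing mLIF, mouse leukemia inhibitory factor, at 200 units/ml. The knockout was made with CRISPR/Cas9 from the LentiCRISPR V2 plasmid, which was transfected with Lipofectamine before puromycin selection and sorting of single-cell clones. No treatment other than the knockout and the steps that made it is known to separate the groups. Whether the WT cells also went through transfection, selection and cloning is not known here. The labels do not say whether the knockout libraries derive from 1 clone or whether the libraries of a group are separate cultures, so p-values measure the spread between libraries, which may be technical. The Bach1 transcript itself was higher in the knockout, at 7.97, 8.39 and 8.47 FPKM in WT and 10.5, 10.4 and 10.4 FPKM in BACH1-KO. A small edit need not remove the transcript, so this level does not check the knockout.

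The inner mitochondrial membrane carries the respiratory chain. Complex II, succinate dehydrogenase, oxidizes succinate and passes electrons to ubiquinone, complex III hands them on to cytochrome c, and complex IV uses them to reduce oxygen to water. Complexes III and IV pump protons across the membrane as they do so, and complex V, the ATP synthase, lets the protons flow back and couples that flow to ATP synthesis. Most subunits are encoded in the nucleus, and several have a second isoform that is characteristic of heart and skeletal muscle or testis. The mitochondrially encoded subunits of complexes III, IV and V were not analysed here.

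Transcripts of these enzymes were mostly lower in BACH1-KO. By limma on log2(FPKM + 1), with Benjamini-Hochberg adjustment over all 12187 genes tested and a threshold of 0.05, 36 of the 47 were lower, 4 were higher and 7 were not called. With quantile normalization of the libraries the same 47 genes split into 29 lower and 10 higher. Changes were widespread in this comparison: 77.0% of all tested genes were called, 39.7% lower and 37.3% higher. The 3 knockout values lay below all 3 WT values for 36 members and above them for 4, against 40.9% and 38.4% of the tested genes. The median log2 fold change (BACH1-KO minus WT) was -0.34 over the members and -0.01 over all tested genes.

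Most members are abundant, and in FPKM as deposited more abundant genes were lower than higher. Of the 1051 tested genes that averaged 100 FPKM or more, 605 (57.6%) were lower and 294 higher, with a median of -0.20. Of the 40 members at that level, 33 (82.5%) were lower and 1 was higher, with a median of -0.39. With quantile normalization 43.6% of the 1051 abundant genes were lower and 37.6% higher; their median moved to -0.04 and that of the 40 members to -0.18. Against a fold change of 1.5 instead of no change, 7 members were lower by limma's treat. By that rule 8.16% of all tested genes were lower, as were 134 (12.75%) of the 1051 abundant genes and 6 of the 40 members. The 7 were Cox4i2, Uqcrh, Cox7c, Cox7a2, Cox6b1, Atp5c1 and Atp5g3.

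**Figure D1:**
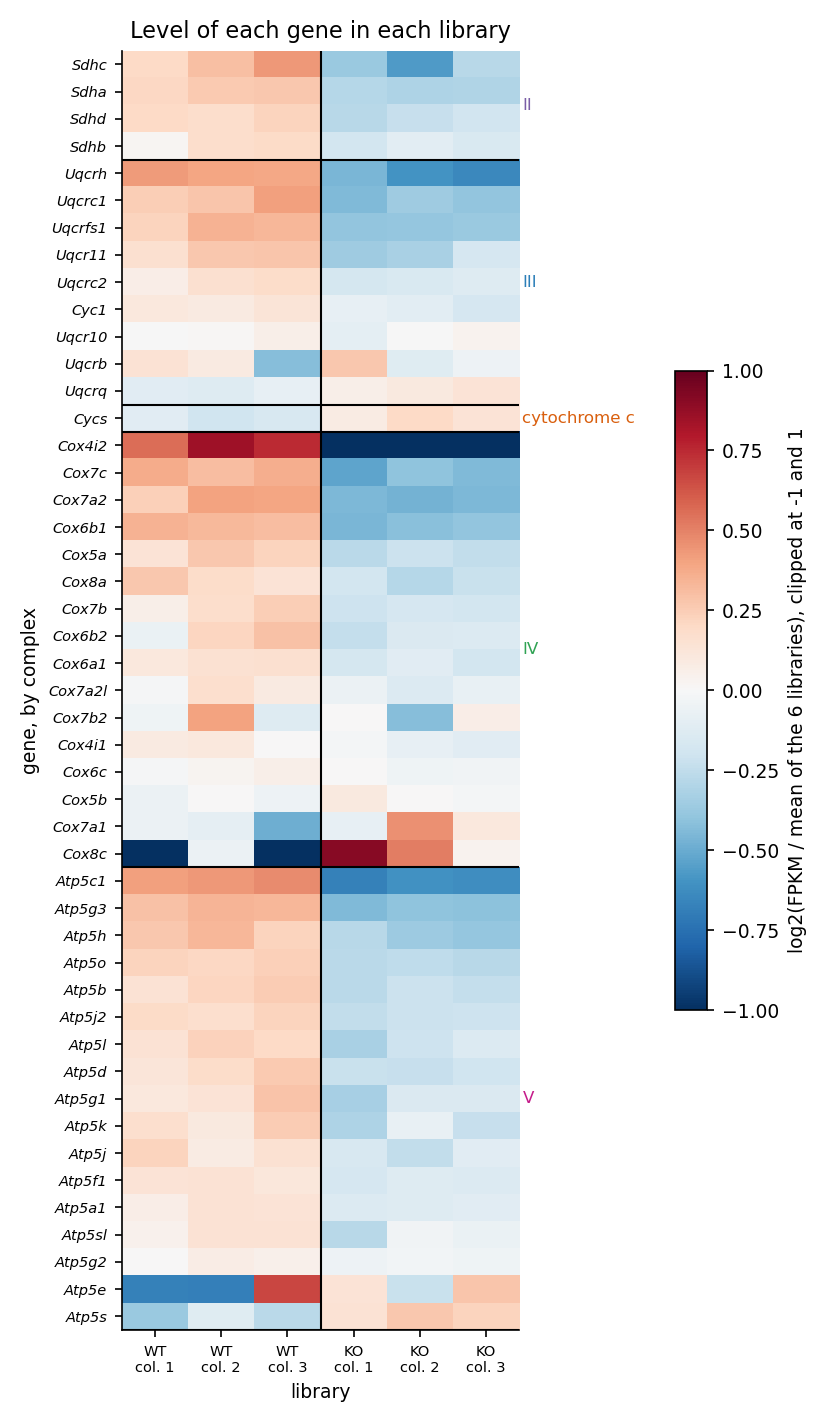
Level of each of the 47 genes (rows, grouped by complex) in each of the 3 WT and 3 KO (BACH1-KO) libraries (columns, numbered by table column). Colour gives log2 of the FPKM over the gene's mean in the 6 libraries, clipped at -1 and 1, red for higher and blue for lower. In 36 rows all 3 knockout libraries lie below all 3 WT libraries, and in Atp5e the third WT library stands apart from the other two.

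The summed FPKM of all 47 genes was 25320, 25730 and 25910 in the WT libraries and 19870, 19980 and 20020 in the knockout libraries, a difference of -22.2%. As a share of all summed FPKM, this was 3.20% to 3.23% in WT and 2.59% to 2.63% in BACH1-KO. The sum of complex II was 684.5 ± 27.1 FPKM in WT and 499.6 ± 9.25 FPKM in knockout (SD, n = 3 per group, as for every mean below), a difference of -27.0%. The difference was -26.7% for complex V, -21.5% for complex IV and -12.3% for complex III, whose sum was level between genotypes after quantile normalization (0.608%). Cytochrome c went the other way, by 23.1%. In each complex as deposited, the sums of the 3 knockout libraries and the 3 WT libraries did not overlap.

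**Figure D2:**
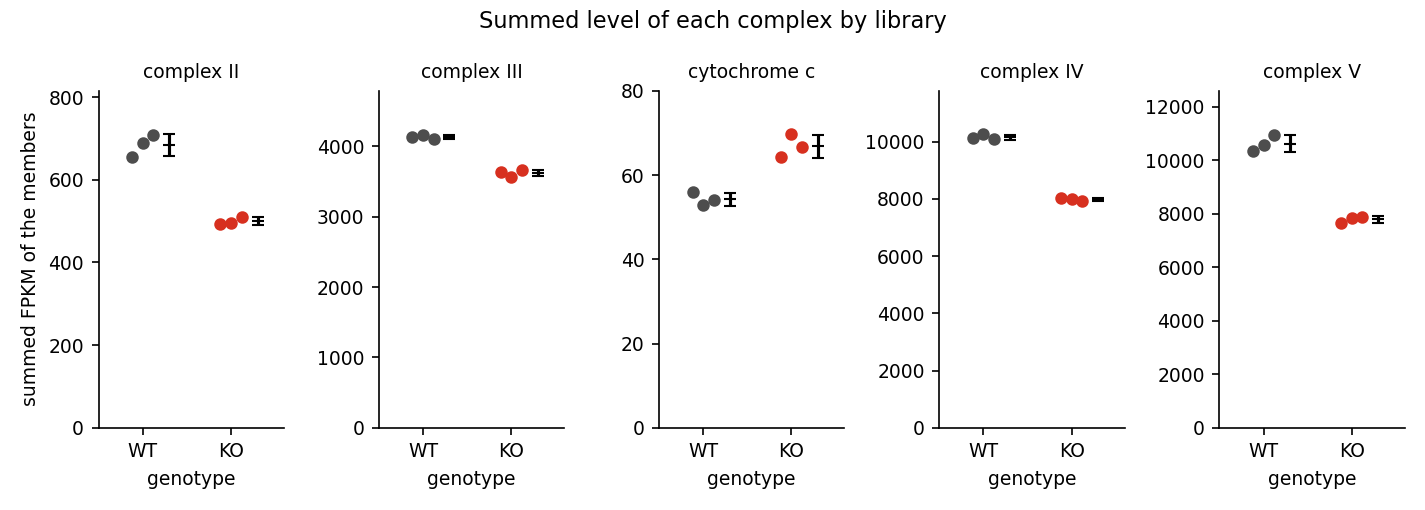
Summed FPKM of the member genes of each complex (vertical axes, each from 0) in the 3 WT (grey) and 3 KO (red, BACH1-KO) libraries, with the mean and SD beside the points. Complexes II, III, IV and V lie lower in the knockout by 27.0%, 12.3%, 21.5% and 26.7%, and cytochrome c lies higher by 23.1%, in FPKM as deposited; with quantile normalization complex III differs by 0.608%.

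Genes of the respiratory chain are known to carry sites for NRF1, for ETS-family factors such as GABPA and for YY1 close to their starts, so the promoters of the members were searched. RefSeq promoters (GRCm38.p6, 250 bases before to 50 after the start) were found for 37 of the 47 members. The NRF1 core GCGCANGCG stood on either strand of 12 of the 37 (32.4%), against 6.47% of all 27025 promoters of that length and 14.6% of the 9742 that belong to tested genes. The ETS core CCGGAAG was in 11 (29.7%), against 9.12% of all promoters and 18.7% of those of tested genes. The YY1 core AAGATGG was in 4 (10.8%), against 6.48% and 7.52%. TGAGTCA, a core that AP-1 and BACH factors bind, was in 3 (8.11%, in Uqcrh, Atp5g1 and Atp5c1), against 5.17% and 3.30%. The antioxidant response element core TGACNNNGC was in 2 (5.41%, in Atp5o and Cox5b), against 12.5% and 14.9%. A match is only a run of letters and shows no binding.

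Below are the 150 bases immediately before the start of a called gene in each complex, shown so that the cores can be seen in place. It is the gene with the largest change among those found to hold an NRF1, ETS or YY1 core in that stretch. Sdhc and Cox4i2, with the largest changes of complexes II and IV, had no promoter here and were not searched. Of these 5 genes Cycs was higher in the knockout and the other 4 were lower, and each core was found in at most 12 of the 37 promoters. Each runs 5′ to 3′ on the gene's own strand, which is the minus strand for all 5, with the matched cores in capitals; none of the matches overlap one another. The intervals are chr13:74350241-74350390 for Sdha, chr4:116075071-116075220 for Uqcrh, chr6:50566570-50566719 for Cycs, chr7:30626115-30626264 for Cox6b1 and chr11:115419920-115420069 for Atp5h.
Sdha: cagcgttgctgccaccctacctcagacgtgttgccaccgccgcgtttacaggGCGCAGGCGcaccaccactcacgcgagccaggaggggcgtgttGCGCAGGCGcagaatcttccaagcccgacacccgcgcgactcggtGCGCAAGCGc
Uqcrh: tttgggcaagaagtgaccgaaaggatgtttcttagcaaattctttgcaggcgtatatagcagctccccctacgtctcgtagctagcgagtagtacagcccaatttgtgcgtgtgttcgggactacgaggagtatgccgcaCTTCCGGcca
Cycs: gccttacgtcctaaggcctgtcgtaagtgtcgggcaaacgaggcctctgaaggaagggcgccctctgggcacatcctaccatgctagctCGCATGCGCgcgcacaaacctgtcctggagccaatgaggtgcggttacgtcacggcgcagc
Cox6b1: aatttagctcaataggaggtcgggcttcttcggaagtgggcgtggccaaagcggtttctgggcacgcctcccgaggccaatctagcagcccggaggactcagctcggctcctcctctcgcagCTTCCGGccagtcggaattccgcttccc
Atp5h: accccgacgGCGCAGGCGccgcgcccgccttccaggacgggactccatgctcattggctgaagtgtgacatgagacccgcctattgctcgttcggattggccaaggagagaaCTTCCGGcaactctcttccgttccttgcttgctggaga
Sdha carries 3 NRF1 cores, Uqcrh and Cox6b1 an ETS core each, Cycs an NRF1 core, and Atp5h one of each kind. In the longer window, 11 of the 12 members with an NRF1 core were lower, 10 of the 11 with an ETS core, 4 of 4 with a YY1 core and 3 of 3 with TGAGTCA. These counts cover only the 37 members with a promoter, whereas 36 lower calls came from all 47 members, so the bases differ. Nothing about a motif is read from these counts.

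Complex II was the complex in which every gene was lower. Sdha, the flavoprotein that oxidizes succinate (chromosome 13, 74322255 to 74350240), was at 118, 123 and 123 FPKM in WT and 83.9, 82.5 and 82.9 FPKM in BACH1-KO, a log2 fold change of -0.54 (SE 0.03, adjusted p = 1.24e-06). Sdhb, the iron-sulfur subunit that passes the electrons on, was at 194, 216 and 218 FPKM in WT and 169, 178 and 172 FPKM in knockout, -0.28 on the log2 scale (SE 0.05, adjusted p = 9.58e-04). The groups did not overlap in either gene, but the call of Sdhb was lost with quantile normalization. Sdhc and Sdhd anchor the enzyme in the membrane and hold its heme. Sdhc (chromosome 1, 171129157 to 171150640) was at 127, 136 and 149 FPKM in WT and 85.6, 74.6 and 91.0 FPKM in knockout, the largest difference of the 4 at -0.71 (SE 0.08, adjusted p = 7.52e-05). Sdhd was at 216, 213 and 219 FPKM in WT and 155, 160.3 and 165 FPKM in knockout, -0.43 on the log2 scale (SE 0.03, adjusted p = 5.95e-06). Every knockout library was below every WT library for both anchors.

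In complex III the catalytic and core subunits were lower, while the most abundant small subunits were not. Uqcrfs1, the Rieske iron-sulfur protein (chromosome 13, 30540312 to 30545316), was at 224, 244 and 242 FPKM in WT and 146, 147 and 148 FPKM in knockout, a log2 fold change of -0.68 (SE 0.04, adjusted p = 1.16e-06). Cyc1, the heme-bearing cytochrome c1, fell from 253.3 ± 3.58 to 217.1 ± 6.62 FPKM, by 0.22 on the log2 scale. Its call was lost with quantile normalization. The core protein Uqcrc1 (chromosome 9, 108936648 to 108949641) was at 329, 337 and 369.5 FPKM in WT and 205, 217 and 211 FPKM in knockout, -0.71 on the log2 scale (SE 0.05, adjusted p = 3.16e-06). The other core protein, Uqcrc2, fell by less, 0.29 on the log2 scale, and in neither core gene did the groups overlap.

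Uqcrh, the hinge protein that helps cytochrome c1 meet cytochrome c (chromosome 4, 116066965 to 116075070), fell most in complex III. It was at 427, 418 and 416 FPKM in WT and 232, 209.6 and 204 FPKM in BACH1-KO, a log2 fold change of -0.97 (SE 0.05, adjusted p = 6.57e-07). The lowest WT library stood well above the highest knockout library. Uqcr11, a small accessory subunit, fell by 0.52. Uqcr10, another small subunit and the most abundant transcript of the complex, was at 1147, 1161 and 1195 FPKM in WT and 1072, 1145 and 1179.8 FPKM in knockout. The groups overlapped and it was not called (-0.04, SE 0.04, adjusted p = 0.334), and with quantile normalization it was called higher (0.18).

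Uqcrq, which lies next to cytochrome b in the complex (chromosome 11, 53427922 to 53430831), was the 1 complex III gene that rose. It was at 646, 639 and 659 FPKM in WT and 728, 747 and 768 FPKM in knockout, a log2 fold change of 0.21 (SE 0.03, adjusted p = 3.77e-04). Its knockout libraries were all above its WT libraries. Uqcrb, a subunit near the ubiquinone site, varied too much for a call, at 577, 554 and 388 FPKM in WT and 630.3, 479 and 505 FPKM in knockout (0.10, SE 0.16, adjusted p = 0.583). Its sign turned without the third WT library (-0.08) or the first knockout library (-0.02). The level of Uqcrh per Uqcrq, a ratio picked after the values were seen, was 0.648 ± 0.0154 in WT and 0.288 ± 0.0274 in knockout.

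Cycs encodes somatic cytochrome c, which also triggers apoptosis when it leaves mitochondria. The gene (chromosome 6, 50562563 to 50566569) was at 55.9, 52.9 and 54.1 FPKM in WT and 64.3, 69.6 and 66.6 FPKM in knockout, a log2 fold change of 0.29 (SE 0.04, adjusted p = 2.23e-04). All 3 knockout libraries were above all 3 WT libraries. The 570 tested genes on chromosome 6 had a median log2 fold change of 0.32, so Cycs was near the middle of its chromosome; the part of that shift in its change was not tested. On each other chromosome that holds members the median was between -0.12 and 0.09.

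Cyct, the cytochrome c of testis, lies outside the symbol rule and comes from the list of cytochrome c genes. It was at 11.5, 13.5 and 11.8 FPKM in WT and 56.5, 50.7 and 54.7 FPKM in knockout, 4.39 times the WT mean, with a log2 fold change of 2.05 (SE 0.07, adjusted p = 9.59e-08). Cyct made up 17.1%, 20.4% and 17.9% of the summed FPKM of both cytochrome c genes in WT and 46.8%, 42.1% and 45.1% in knockout. Markers of male germ cells mostly moved the same way: 9 of the 12 on the list had a row and 8 were tested. Of these markers 7 were higher and Ldhc was not called (-0.21). Their summed FPKM ranged from 59.8 to 65.1 over the WT libraries and from 369 to 379 over the knockout libraries, led by Stra8 and Sycp3, with Acrv1 at 0 in every WT library. Their part in the Cyct result was not tested. In bulk RNA, more cells of a type and more RNA per cell cannot be told apart, and the same holds for fewer cells and less RNA per cell.

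**Figure D3:**
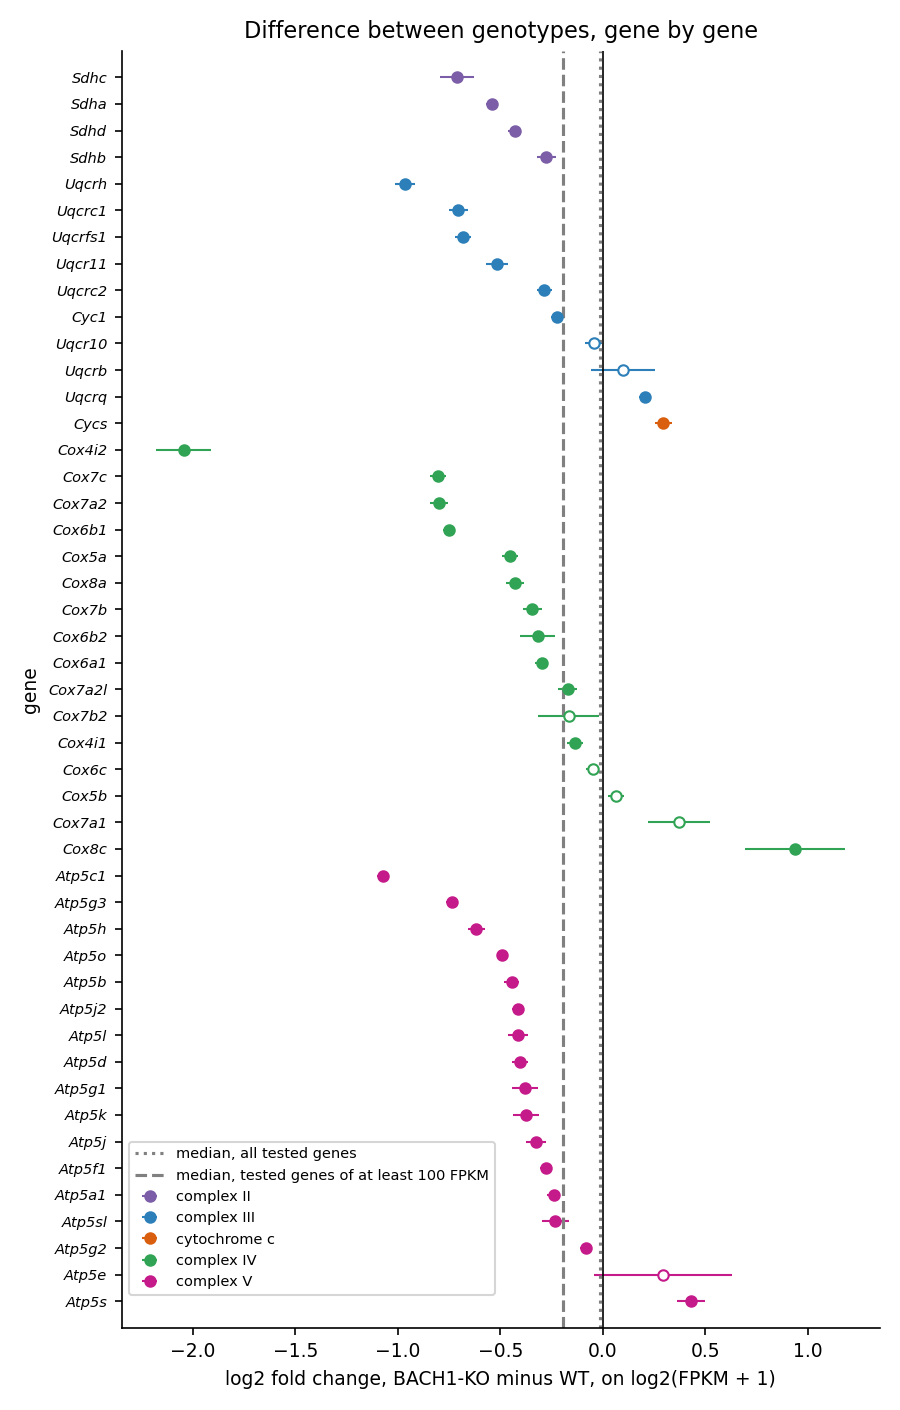
Log2 fold change of each of the 47 genes (horizontal axis, BACH1-KO minus WT on log2(FPKM + 1), bars are the moderated standard error), by complex. Filled points passed the threshold of 0.05 and open points did not; the dotted line is the median of all tested genes (-0.01) and the dashed line that of tested genes of at least 100 FPKM (-0.20). Complexes II and V lie mostly left of both lines as deposited, and Cox4i2 lies farthest left at -2.04.

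Of the 16 genes of complex IV, 11 were lower, 1 was higher and 4 were not called, with a median log2 fold change of -0.31. The 11 that are not tissue isoforms, among them the supercomplex factor Cox7a2l, split into 9 lower and 2 not called. With Ndufa4, a complex IV subunit outside the symbol rule (889.5 ± 21.5 FPKM in WT, 911.8 ± 34.9 in knockout, 0.04, not called), in place of Cox7a2l, the split was 8 lower and 3 not called. Cox4i1, the regulatory subunit to which ATP binds, was the most abundant at 1849.8, 1868 and 1740.2 FPKM in WT and 1711, 1644 and 1606 FPKM in knockout. It was lower by 0.14 on the log2 scale (SE 0.04, adjusted p = 0.0122) with no overlap between groups. That call was not stable: it was lost without the third knockout library (adjusted p = 0.0571). Quantile normalization turned the difference to 0.09 and the call to higher. Cox5a, which sits on the matrix side, fell from 701.7 ± 32.6 to 511.7 ± 10.0 FPKM. Cox5b, the zinc-binding subunit beside it, was at 609.6, 636 and 612 FPKM in WT and 679.5, 637 and 626 FPKM in knockout and was not called (0.06, adjusted p = 0.165). With quantile normalization Cox5b was called higher (0.30).

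The 3 largest differences among the widely expressed complex IV genes were in small subunits, Cox7c, Cox7a2 and Cox6b1, and other small subunits differed less. Cox7c (chromosome 13, 86044798 to 86046795) was at 1643, 1576 and 1637 FPKM in WT and 884, 962 and 939 FPKM in knockout, a log2 fold change of -0.80 (SE 0.04, adjusted p = 5.54e-07). Cox7a2, the widely expressed isoform of its pair (chromosome 9, 79755241 to 79771422), was at 268, 299.8 and 297 FPKM in WT and 166, 164 and 166 FPKM in knockout, -0.80 on the log2 scale (SE 0.04, adjusted p = 1.24e-06). Cox6b1, on the intermembrane face of the enzyme (chromosome 7, 30616971 to 30626114), was at 723, 714 and 706 FPKM in WT and 415, 426 and 433 FPKM in knockout, -0.75 (SE 0.03, adjusted p = 1.98e-07). The groups were far apart in all 3 genes. Cox8a, Cox7b and Cox6a1 fell by 0.43, 0.34 and 0.30. Cox6c was not called (-0.05, adjusted p = 0.171; 0.09 and called with quantile normalization). Cox7a2l, a factor that joins complexes III and IV into supercomplexes, fell by 0.17, a difference that turned to 0.01 with quantile normalization. The level of Cox7c per Cox4i1, chosen after values were seen, was 0.891 ± 0.0485 in WT and 0.562 ± 0.0393 in knockout.

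Tissue isoforms of complex IV moved in both directions. Cox4i2, the isoform of lung and of low oxygen (chromosome 2, 152753916 to 152765039), was at 20.8, 25.5 and 23.8 FPKM in WT and 5.54, 5.60 and 3.74 FPKM in BACH1-KO. Its log2 fold change of -2.04 (SE 0.13, adjusted p = 2.80e-06) was the largest in size of the 47 genes. Its share of the Cox4 pair, in summed FPKM, was 1.27% ± 0.134 in WT and 0.298% ± 0.0577 in knockout. For 9 such shares an exact two-sided permutation test over the 6 libraries can give no p below 0.1, so none could pass the threshold. The smallest p obtained after adjustment over the 9 was 0.129. The groups did not overlap in 7 of the 9 shares, Atp5g1 and Cox7b2 being the exceptions.

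Cox7a1, the heart and muscle partner of Cox7a2, was at 99.8, 97.5 and 74.0 FPKM in WT and 98.1, 142.9 and 112 FPKM in knockout, and was not called (0.37, SE 0.15, adjusted p = 0.0522). It passed without the first WT library (adjusted p = 0.0461), without the first knockout library (adjusted p = 0.0226), with quantile normalization (adjusted p = 0.0155) and with a filter at 5 FPKM (adjusted p = 0.0472). Beside the lower Cox7a2, its share of the pair was 27.1%, 24.5% and 19.9% in WT and 37.2%, 46.6% and 40.2% in knockout. Cox6a2, the muscle partner of Cox6a1, was listed at 0 in all 3 WT libraries and at 2.35, 1.70 and 1.78 FPKM in knockout, and was below the level filter. Markers of heart and skeletal muscle were near the bottom of the scale in both genotypes. The summed FPKM of 12 of 12 ranged from 5.91 to 6.86 over the WT libraries and from 6.64 to 9.31 over the knockout libraries. Without Tnni3, the other 11 summed to between 1.99 and 3.061 FPKM in WT and between 5.084 and 7.855 in knockout. Of the 12, 2 passed the level filter, Tnni3 lower and Myl2 higher. The part of these markers in the Cox7a1 and Cox6a2 values was not tested.

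Cox6b2, Cox7b2 and Cox8c are isoforms known from testis. Cox8c (chromosome 12, 102899306 to 102900534) was at 0.809, 2.12 and 0.764 FPKM in WT and 4.16, 3.15 and 2.26 FPKM in knockout, a log2 fold change of 0.94 (SE 0.24, adjusted p = 0.00773). The knockout libraries were above the WT libraries, narrowly for the pair nearest each other. Cox6b2 was at 67.2, 81.5 and 86.2 FPKM in WT and 59.5, 63.5 and 63.9 FPKM in knockout, lower by 0.32 (adjusted p = 0.0086). Because Cox6b1 was lower still, the share of Cox6b2 in the pair was 9.88% ± 1.23 in WT and 12.8% ± 0.212 in knockout. Cox7b2 was at 6.30, 8.58 and 5.94 FPKM in WT and 6.52, 4.83 and 6.81 FPKM in knockout and was not called (adjusted p = 0.327). Its share of the Cox7b pair overlapped between genotypes (exact permutation p = 0.6). Thus 1 of the 3 rose, 1 fell and 1 was not called. Outside the symbol rule, the testis genes Cyct and Slc25a31 rose, by 2.05 and 2.65 on the log2 scale. Of the 8 tested germ cell markers above 7 were higher, and their part in these values was not tested.

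**Figure D4:**
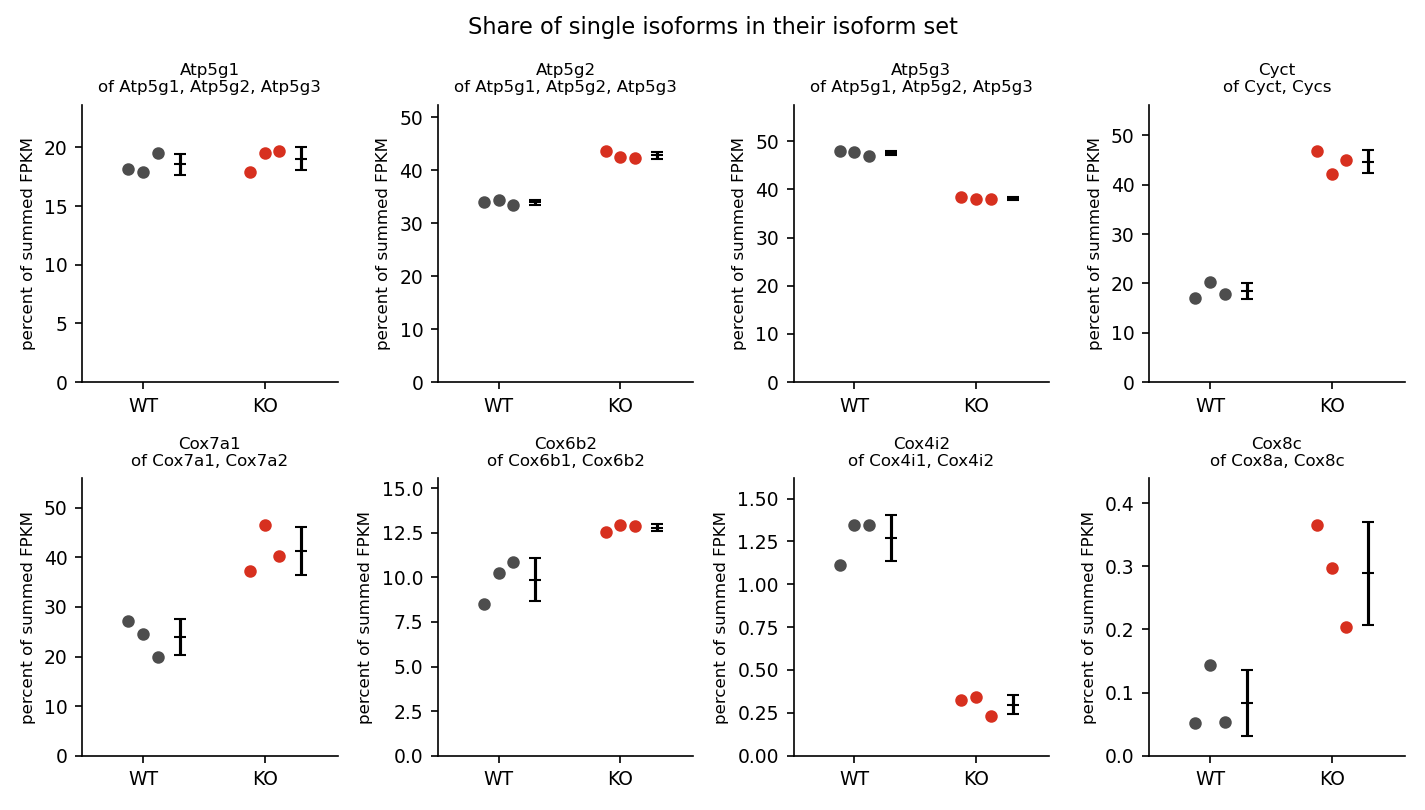
Share of 1 isoform in the summed FPKM of its isoform set (vertical axes in percent, each from 0) in the 3 WT (grey) and 3 KO (red, BACH1-KO) libraries, with the mean and SD beside the points. Shares of Atp5g2, Cyct, Cox7a1, Cox6b2 and Cox8c lie higher and those of Atp5g3 and Cox4i2 lower in the knockout, without overlap, and that of Atp5g1 overlaps.

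In complex V, 15 of 17 genes were lower, 1 was higher and 1 was not called, with a median log2 fold change of -0.38. The catalytic head, F1, turns over ATP. Atp5b, its beta subunit and the most abundant of the 47 genes in WT (chromosome 10, 128083307 to 128090388), was at 1809.7, 1904 and 1956 FPKM in WT and 1363, 1410.3 and 1391 FPKM in BACH1-KO, a log2 fold change of -0.44 (SE 0.04, adjusted p = 1.01e-05). Atp5a1, the alpha subunit, fell from 838.2 ± 24.9 to 709.1 ± 6.69 FPKM, by 0.24, a call lost with quantile normalization. Atp5c1, the gamma subunit that forms the rotating shaft inside the head (chromosome 2, 10056030 to 10080510), was at 960.0, 975 and 999.5 FPKM in WT and 453, 474 and 469 FPKM in knockout. Its log2 fold change of -1.07 (SE 0.03, adjusted p = 5.72e-08) was the largest fall in complex V, and every WT library was above every knockout library by a wide margin.

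Ratios between transcripts of F1 differed between the genotypes. The level of Atp5c1 per Atp5b, chosen after values were seen, was 0.518 ± 0.0109 in WT and 0.335 ± 0.00241 in knockout, while that of Atp5a1 per Atp5b was 0.444 ± 0.00781 in WT and 0.511 ± 0.00760 in knockout. Neither ratio overlapped between the groups. Atp5d, the delta subunit, fell by 0.40. Atp5e, the epsilon subunit, was at 145, 144 and 368 FPKM in WT and 255, 199 and 281 FPKM in knockout and was not called (0.29, SE 0.34, adjusted p = 0.444). The third WT library was above all other libraries, and without that library the gene was called higher, with a log2 fold change of 0.74 (adjusted p = 0.00132). Atpif1, the inhibitor that blocks ATP hydrolysis by F1 and that the symbol rule does not take in, was at 813.1 ± 21.3 FPKM in WT and rose to 996.2 ± 54.2 FPKM (0.29 on the log2 scale, SE 0.04, adjusted p = 3.86e-04).

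The c subunits form the ring that protons turn, and 3 genes encode the same mature protein behind different import sequences. Atp5g3 (chromosome 2, 73908447 to 73912464) was at 790.2, 815 and 813 FPKM in WT and 476, 489 and 486 FPKM in knockout, a log2 fold change of -0.74 (SE 0.03, adjusted p = 1.89e-07). Atp5g1 was at 299, 306 and 339 FPKM in WT and 221, 251 and 252 FPKM in knockout, -0.38 on the log2 scale (SE 0.06, adjusted p = 6.92e-04). Atp5g2 was at 559.5, 587 and 579 FPKM in WT and 539, 548 and 543 FPKM in knockout, -0.08 on the log2 scale (SE 0.03, adjusted p = 0.0307). The last is a weak call: it passed only when the first WT library was left out, of the 6 libraries left out in turn, with adjusted p of 0.0611 to 0.107 for the other 5. Quantile normalization turned the fold change of Atp5g2 to 0.14 and the call to higher. The leading gene of the set changed: Atp5g3 held 47.5% ± 0.491 of the summed FPKM in WT and 38.1% ± 0.312 in knockout, and Atp5g2 held 33.9% ± 0.457 and 42.9% ± 0.656. The share of Atp5g1 was 18.5% ± 0.889 in WT and 19.0% ± 0.968 in knockout and overlapped.

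All 4 genes of the peripheral stalk, which holds the head still, were lower, with a median of -0.41. Atp5h (chromosome 11, 115415691 to 115419919) was at 847, 886 and 823 FPKM in WT and 580.1, 546 and 538 FPKM in knockout, a log2 fold change of -0.62 (SE 0.04, adjusted p = 2.94e-06). Atp5o, which joins the stalk to the head, Atp5j and Atp5f1 fell by 0.49, 0.33 and 0.28, and in none of the 4 did the groups overlap. The membrane accessory subunits Atp5j2, Atp5l and Atp5k, of which Atp5l and Atp5k bear on pairing of the enzyme into dimers, fell by 0.42, 0.41 and 0.38, and the call of Atp5k was lost with quantile normalization. Usmg5 and 2010107E04Rik, small subunits of the same region outside the symbol rule, fell by 0.37 and 0.20.

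Atp5s and Atp5sl match the symbol rule without being core subunits. Atp5s, the coupling factor B gene (chromosome 12, 69724913 to 69744665), was the 1 complex V symbol that rose, at 9.88, 11.8 and 10.6 FPKM in WT and 14.1, 15.4 and 14.9 FPKM in knockout (log2 fold change 0.43, SE 0.07, adjusted p = 4.81e-04). Atp5sl, now named Dmac2 and tied to assembly of the membrane arm of complex I, fell by 0.23. Without this pair, 14 of 15 complex V genes were lower and 1 was not called, with a median of -0.40. Both Cox8c and Atp5s, which rose, lie on chromosome 12, whose 436 tested genes had a median of 0.09.

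**Figure D5:**
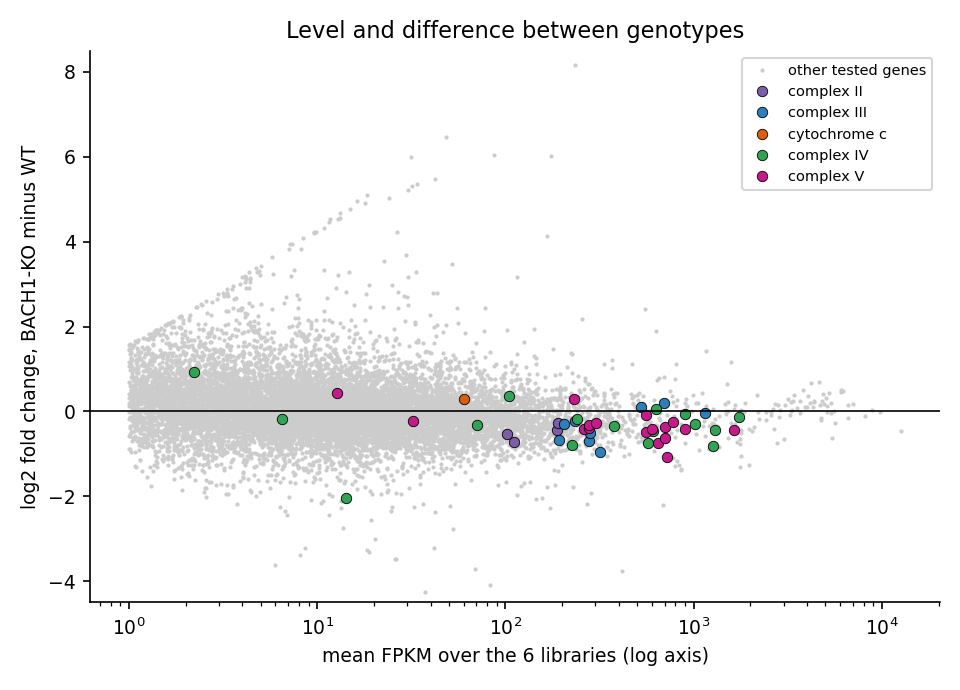
Mean FPKM over the 6 libraries (horizontal log axis) against log2 fold change, BACH1-KO minus WT, for the 47 genes by complex and for all other tested genes (grey). Most members lie to the right, at 100 FPKM or more, and below 0 in FPKM as deposited; the 3 lowest members by level are Cox8c, Cox7b2 and Atp5s.

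Complex I is the entry point for electrons from NADH. Of 37 tested genes with a Nduf symbol, 18 were lower, 8 were higher and 11 were not called, with a median of -0.15. They include Ndufa4, which was taken above as a complex IV subunit and was not called. The difference between complex I and the other complexes was not tested. Replicates were close for most of the members, with a median coefficient of variation of 3.96% in WT and 3.05% in knockout. It was above 20% in at least 1 group for 5 of them: Uqcrb, Cox4i2, Cox7b2, Cox8c and Atp5e.

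The lists of related genes below are read against all tested genes, of which 37.3% were higher and 39.7% lower. Among factors that build the complexes, both tested assembly factors of complex II rose: Sdhaf1 from 17.5 ± 1.44 to 32.0 ± 2.21 FPKM (log2 fold change 0.84) and Sdhaf2 from 8.93 ± 0.549 to 13.4 ± 0.373 FPKM (0.54), while all 4 subunits fell. Sdhaf1 helps place iron-sulfur clusters in Sdhb and Sdhaf2 attaches the flavin of Sdha. For complex III, 2 of 5 rose and 1 fell: Ttc19, needed to clear fragments of the Rieske protein (11.4 ± 0.574 to 21.0 ± 0.563 FPKM), and Lyrm7, its chaperone (1.54 ± 0.169 to 3.41 ± 0.114 FPKM), were higher and Uqcc1 was lower by 0.14. For complex V, 2 of 4 rose, Tmem242 by 0.57 and Atpaf2, a chaperone of the alpha subunit, by 0.40, and the other 2 were not called.

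Complex IV has the longest list of assembly factors, and of 26 tested genes 12 were higher, 10 lower and 4 not called, with a median of -0.01, shares near those of all tested genes. Coa7 rose from 3.95 ± 0.538 to 12.5 ± 0.684 FPKM (1.46) and Coa6, which takes part in copper delivery, from 31.8 ± 1.09 to 76.7 ± 2.90 FPKM (1.24). Pet117 fell from 8.78 ± 2.00 to 4.85 ± 1.07 FPKM (-0.74) and Higd2a, a factor of complex and supercomplex assembly, from 202.1 ± 9.41 to 124.9 ± 11.0 FPKM (-0.69). Of 5 genes for the lyase and partners of cytochrome c in the intermembrane space, 2 rose and 3 were not called. The 2 were Diablo, an apoptosis factor released beside cytochrome c (28.5 ± 1.22 to 45.5 ± 1.71 FPKM), and Gfer, a sulfhydryl oxidase (0.25 on the log2 scale).

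Of 15 tested regulators of mitochondrial biogenesis, 3 were higher, 6 lower and 6 not called, and the share that was lower is near that of all tested genes. Gabpa, the ETS-family subunit that binds the CCGGAAG core, was at 58.2 ± 0.389 FPKM in WT and 34.2 ± 0.386 FPKM in BACH1-KO, a log2 fold change of -0.75 (SE 0.03, adjusted p = 2.67e-07). It fell, as did Pprc1, a coactivator of the PGC-1 family, which went from 24.3 ± 1.38 to 14.6 ± 0.612 FPKM (-0.69). Yy1 rose from 36.3 ± 2.95 to 45.5 ± 1.32 FPKM (0.32), and Tfb1m, a methyltransferase of mitochondrial ribosomal RNA, by 0.27. Nrf1, named here after its value was seen because its core was searched, was at 28.0 ± 1.41 FPKM in WT and 29.8 ± 0.648 FPKM in knockout and was not called (0.09, adjusted p = 0.0994).

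Ubiquinone takes electrons from complex II to complex III, and of 12 tested genes for its synthesis 6 were higher, 2 lower and 4 not called. Coq2 and Coq4 rose by 0.65 and 0.59 on the log2 scale, and Coq7, a hydroxylase of the pathway, and Pdss1, which builds the side chain, fell by 0.63 and 0.25. Of 8 tested carriers and channels that exchange nucleotides, phosphate or protons, 4 were higher and 4 lower. Slc25a31, the ADP/ATP carrier of testis, rose from 1.51 ± 0.504 to 14.5 ± 0.237 FPKM (2.65) and Ucp2, an uncoupling-family carrier, from 28.9 ± 1.26 to 56.3 ± 1.87 FPKM (0.94). Slc25a5, the abundant ADP/ATP carrier of growing cells, fell from 1346 ± 9.99 to 1055 ± 6.76 FPKM (-0.35), and Vdac1, the main outer-membrane pore, from 667.8 ± 21.9 to 427.7 ± 3.39 FPKM (-0.64).

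Other marker lists moved between the genotypes too. All 11 embryonic stem cell markers were present, with sums ranging from 10680 to 11450 FPKM over the WT libraries and from 6913 to 7161 over the knockout libraries, with 9 lower and 2 higher. Hepatocyte markers were higher in 11 of 11, with sums of between 11.1 and 16.7 FPKM in WT and between 850.8 and 880.3 in knockout, led by Alb; this was 0.111% to 0.115% of the knockout libraries. For 10 of these 11 the WT mean was under 1 FPKM, so they passed the level filter only through the knockout libraries and the count of higher calls is no support. Fibroblast feeder markers summed to between 249.6 and 267.4 FPKM in WT and between 124.2 and 129.5 in knockout, with 4 of 11 tested, 3 of these lower and Fn1 higher. The difference in the sum lay in Vim (186.5 ± 9.31 FPKM in WT and 54.9 ± 1.35 in knockout). The other 10 summed to between 72.3 and 73.4 FPKM in WT and between 70.2 and 73.4 in knockout. Within that level sum, single genes differed in both directions. Thy1 fell from 18.8 to 10.2 FPKM and Pdgfrb from 3.78 to 1.31 FPKM, while Fn1 rose from 48.7 to 58.8 FPKM. Col3a1 and Lum were at 0 in every WT library. The part of these shifts in the respiratory genes was not tested. Per-library FPKM summed to between 785800 and 805100 in WT and between 762700 and 766100 in knockout, lower in every knockout library. Between 16047 and 17455 genes had a value above 0, more of them in every knockout library.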

How the data were processed

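RNA sequencing of 3 WT and 3 BACH1-KO libraries was analysed from 1 table, in which the authors deposited FPKM per gene symbol; RNA was taken with Trizol and made into TruSeq libraries, per the labels' protocols. Cufflinks and the build mm10 are named in the submitters' processing notes, while the aligner, annotation and tool versions were not given in the sources used here. As FPKM is scaled by transcript length and library size, each value is a share of its library. No read counts were used and absolute depth is unknown; the step between low values (under 0.1 FPKM) put depth, relative to the first WT column, at 1.11 and 1.06 in the other two WT columns and at 1.17, 1.18 and 1.01 in the knockout columns. The column names give the genotype but match no single title, so columns were unpaired replicates of their group and no comparison within a batch could be made. The 23 rows with a number in place of a symbol (0.0987% of summed FPKM) were left out.

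Log2(FPKM + 1) of the 12187 genes averaging 1 FPKM or more was fitted with limma 3.58.1 in R 4.3.3 (lmFit, eBayes with a trend), two-sided, with p-values adjusted over all of them. The pseudocount makes fold changes of low genes too small. The fit was tested on simulated data. Shares of isoforms were compared by exact permutation, and medians and sums were only described. Alternatives were a pseudocount of 0.1, no filter, a filter at 5 FPKM, median-of-ratios scaling, quantile normalization, a constant prior variance, a test against a 1.5-fold change and leaving out each library.

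Members, marker lists and pathway lists were chosen with earlier results of these data known. Full values are given for the most abundant member of each complex, for up to 3 higher and 3 lower called members with the largest changes, and for isoform sets; in each pathway list up to 2 higher and 2 lower called genes are named. Other names were chosen after values were seen. Coordinates and promoters are from RefSeq GRCm38.p6, the same assembly as mm10. A chromosome was found for 47 of 47 members and 12135 of 12187 tested genes, and a promoter for 37 members and 9742 tested genes. GENCODE M21 lists 8 pseudogenes named after 5 members (Atp5c1, Atp5k, Atp5l, Cycs and Uqcrh), whose reads may be shared with the parent gene.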

Additional observations from a re-analysis of the deposited data

How the results depend on the processing

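The direction of the medians held under every alternative run, but their size depended on the scaling of the libraries. With quantile normalization 10 members were called higher, and the median log2 fold change became -0.18 for all members, -0.33 for complex II, -0.10 for complex III, -0.18 for complex IV, -0.18 for complex V and 0.39 for cytochrome c. The difference in summed FPKM became -10.3% for all members, -18.1% for complex II, 0.608% for complex III (reversed), -9.39% for complex IV, -15.2% for complex V and 31.7% for cytochrome c. The fold changes of Cox7a2l (0.0126), Atp5g2 (0.138), Cox6c (0.0948), Uqcr10 (0.178) and Cox4i1 (0.0856) reversed. The cause was not tested. With median-of-ratios scaling the medians were -0.39 for all members, -0.33 for complex III, -0.35 for complex IV and -0.42 for complex V, and the summed differences were -24.5% for all members, -14.8% for complex III and -23.7% for complex IV. Against a fold of 1.5, limma's treat gave 7 members lower and 0 higher (9 and 0 at an unadjusted p under 0.05), since that test asks for a larger change than the one that gave 36 and 4.

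Leaving out each library in turn gave 34 to 36 members lower and 4 to 5 higher. The median ranged from -0.39 to -0.32 for all members, -0.32 to -0.26 for complex III, -0.35 to -0.27 for complex IV and -0.42 to -0.33 for complex V. The log2 fold change of Uqcrb ranged from -0.0819 to 0.204 and reversed without WT replicate 3 (-0.0819) and without BACH1-KO replicate 1 (-0.02). With the pseudocount of 0.1 and with no filter, all 47 genes kept their direction and side of the threshold. No paired analysis was possible because the columns carry no number that the labels tie to a sample. Depth in fragments is unknown, so no counting error could be given, which matters most for Cox8c and Cox6a2.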
